A study of Mus musculus with 17 samples.

Results

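The comparison set 5 libraries of TERT-High Kit+ cells (KITpos) against 4 libraries of GFRa1+ TERT-High Kit- cells (GFRA1pos), 9 of the 17 libraries in the series, chosen by their sample titles. Both populations were sorted from testes of adult Tert-Tomato/+ mice of a B6/J X B6/N mixed background, and every library of the series carries this Tomato reporter for Tert, the gene of the catalytic subunit of telomerase. The remaining libraries were 4 of GFRa1- TERT-High Kit- cells (GFRA1neg) of the same adult animals' genotype and 4 of TERT+ OCT4-GFP+ gonocytes from testes at postnatal day 6 (P6gonocyte). They shared the estimate of the spread between libraries and were otherwise used only for values set side by side. Whether each library stands for its own animal is not in the labels; p-values therefore describe the spread between libraries only, which may be technical.

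Spermatogonia are the germ cells on the basal side of the seminiferous tubule. Some of those that carry GFRA1 act as stem cells: GFRA1 and the receptor tyrosine kinase RET together bind GDNF, a growth factor made by the supporting cells of the tubule, and signal through the MAP kinase and PI3 kinase pathways. Under retinoic acid the cells switch on KIT, the receptor for stem cell factor, and STRA8, divide as differentiating spermatogonia and enter meiosis. The comparison therefore asked how the RNA of Kit+ spermatogonia differed from that of the GFRA1-bearing cells at the other end of the adult series.

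Sort genes came first, since they check the labels. Kit was measured at 266, 453, 402, 347 and 296 CPM (counts relative to the TMM-adjusted depth of each library) in the KITpos libraries, against 12.6, 20.8, 17 and 20.2 CPM in the GFRA1pos libraries. Gfra1 was at 0.84, 7.19, 5.71, 3.24 and 6.58 CPM in KITpos and at 394, 385, 426 and 355 CPM in GFRA1pos. For both genes the groups lay far apart, on the side that the labels give, with a mean 20-fold higher for Kit (log2 fold change 4.32 ± 0.29 SE, adjusted p = 1.12e-09, edgeR quasi-likelihood test with Benjamini-Hochberg adjustment over 15451 genes) and 82.8-fold lower for Gfra1 in KITpos cells (log2 fold change -6.35 ± 0.31 SE, adjusted p = 2.11e-11). Being sorted on, neither gene is a finding. Tert, by whose reporter both populations were gated as high, was at 8.96, 8.7, 8.04, 7.33 and 4.68 CPM in KITpos and at 12.3, 3.81, 6.44 and 6.42 CPM in GFRA1pos, ranges that overlapped (log2 fold change 0.06 ± 0.30 SE, adjusted p = 0.889).

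Stra8 and Ret were not sorted on. Stra8, induced by retinoic acid and required for entry into meiosis, was at 182, 329, 198, 262 and 272 CPM in KITpos, against 24.2, 22.4, 19.5 and 27.4 CPM in GFRA1pos, and rose 10.6-fold (log2 fold change 3.41 ± 0.23 SE, adjusted p = 1.09e-09). Ret was at 4.2, 6.84, 11.3, 7.33 and 2.42 CPM in KITpos, against 361, 392.2, 438 and 378 CPM in GFRA1pos, and fell by a factor of 61.2 (log2 fold change -5.91 ± 0.26 SE, adjusted p = 6.61e-12). No library of one group reached the range of the other for either gene.

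**Figure D1:**
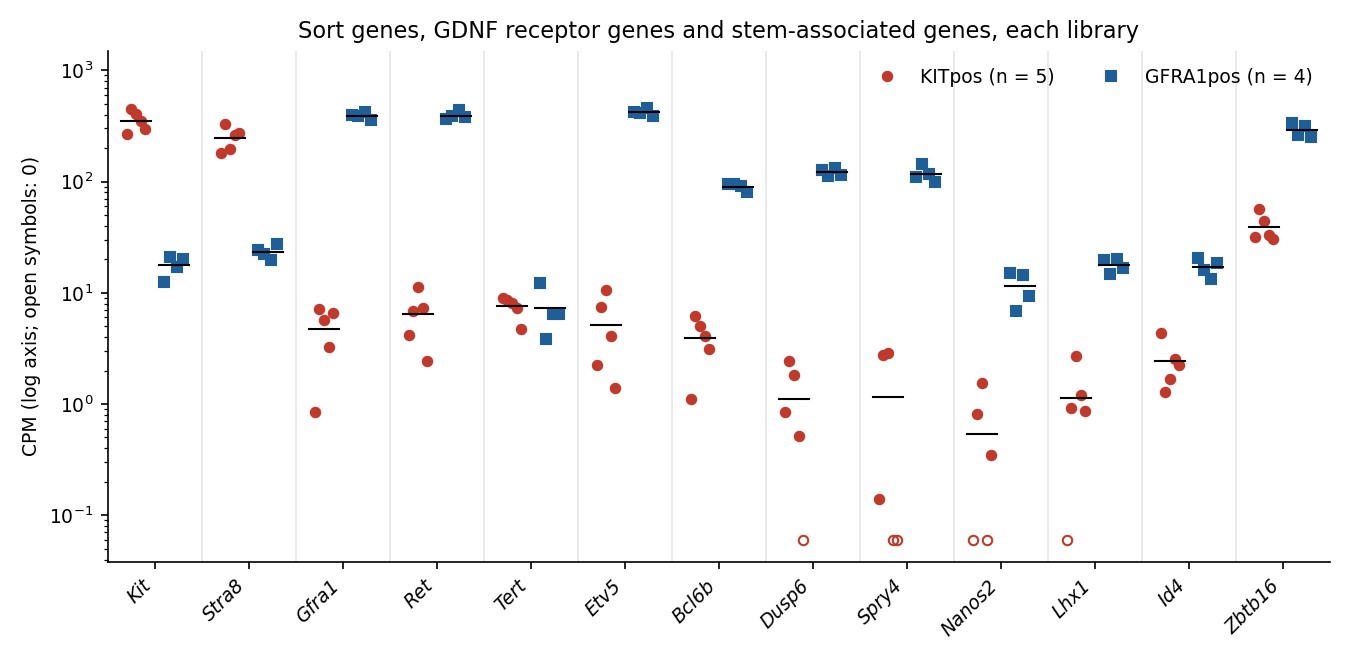
Normalized level (CPM, log axis) of sort genes, GDNF receptor genes and genes linked to spermatogonial stem cells in each KITpos (circles, n = 5) and GFRA1pos (squares, n = 4) library; horizontal lines are means, and open symbols at the bottom are libraries with 0 counts. Kit and Stra8 stood higher and the stem-associated genes lower in every KITpos library, while the 2 groups overlapped for Tert.

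Depth and other cell types differed between the sorts. KITpos libraries held 5178352 to 8300165 counts and GFRA1pos libraries 10918223 to 11567191, without overlap. A single row without a symbol held 15.2% to 29.3% of the counts of KITpos libraries and 23.3% to 29.8% of those of GFRA1pos libraries. Summed CPM of 18 spermatid markers reached 756 to 2361 in KITpos libraries and 182 to 2975 in GFRA1pos libraries, a spread that crossed the groups, and none of the 18 was called. Summed Leydig cell markers (11 genes, of which 8 of 10 tested were called higher) reached 28.9 to 154 CPM in KITpos, against 14.9 to 30.0 CPM in GFRA1pos; none was at 0 in all 9 libraries. Cyp17a1, a steroid-making enzyme of Leydig cells, was at 16.5, 8.35, 1.69, 9.04 and 15.1 CPM in KITpos, against 0.355, 1.66, 2.31 and 0.76 CPM in GFRA1pos, and Hsd17b3, the testosterone-making enzyme, at 0.259 to 9.66 CPM in KITpos, against 0 to 0.293 CPM in GFRA1pos. Without the 2 libraries of each group that held most spermatid RNA, 2 Leydig markers were called, neither of these among them. In KITpos those libraries, replicates 1 and 5, also had the highest Leydig sums (154 and 103 CPM). Leaving them out therefore cannot tell Leydig from spermatid RNA. Endothelial markers (9 genes, 1 of them at 0 in all 9 libraries; 5 of 8 tested lower) summed to 17.2 to 24.2 CPM in KITpos and 45.1 to 51.0 CPM in GFRA1pos. Sertoli markers (16 genes, none at 0 throughout; 2 of 13 tested higher and 2 lower) summed to 91.7 to 152 CPM in KITpos and 192 to 222 CPM in GFRA1pos. Most of that sum came from Ctsl, a cathepsin, at 80.0 ± 11 CPM in KITpos and 159 ± 10.9 CPM in GFRA1pos, and Trf, transferrin, at 1.87 ± 1.4 CPM in KITpos and 26.8 ± 4.74 CPM in GFRA1pos (mean ± SD), whereas the median log2 fold change of the tested Sertoli markers was 0.65. The part of these cell types in the results was not tested.

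Retinoic acid is known to switch on KIT and STRA8, and its receptors bind a known motif. Its action in these cells was not measured. The 250 bases before the start of 3 genes are shown. They are Stra8, which rose, Cyp26a1, a retinoic acid-degrading enzyme widely used as a target gene of the receptors, and Gfra1. Sequences are from the RefSeq promoter table (build GRCm38.p6), read 5′ to 3′ on the strand of the gene, and capitals mark single hexamers of the retinoic acid receptor motif on either strand (AGGTCA with its variants: AGTTCA is one, GGGTCA another and GGTTCA the last).
Stra8, chr6:34920698-34920947, plus strand: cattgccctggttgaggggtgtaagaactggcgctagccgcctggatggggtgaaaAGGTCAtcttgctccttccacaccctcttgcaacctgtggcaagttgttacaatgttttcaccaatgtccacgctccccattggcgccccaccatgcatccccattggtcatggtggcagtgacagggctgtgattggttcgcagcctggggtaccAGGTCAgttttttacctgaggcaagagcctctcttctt
Cyp26a1, chr19:37697558-37697807, plus strand: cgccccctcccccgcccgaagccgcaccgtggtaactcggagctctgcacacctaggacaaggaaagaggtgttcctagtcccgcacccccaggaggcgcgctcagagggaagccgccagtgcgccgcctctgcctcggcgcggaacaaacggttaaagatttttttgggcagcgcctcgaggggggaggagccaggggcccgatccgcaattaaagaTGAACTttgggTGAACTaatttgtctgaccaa
Gfra1, chr19:58455399-58455648, minus strand: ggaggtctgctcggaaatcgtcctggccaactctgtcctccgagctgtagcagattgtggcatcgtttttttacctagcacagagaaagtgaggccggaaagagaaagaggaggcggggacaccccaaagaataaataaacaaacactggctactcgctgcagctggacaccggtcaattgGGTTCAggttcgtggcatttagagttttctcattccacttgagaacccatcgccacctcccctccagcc
Stra8 held 2 hexamers, the first bases of which lie 194 and 38 bases before the start. Cyp26a1 held 2 hexamers as a direct repeat spaced by 5 bases, on the other strand, and Gfra1 held 1 hexamer. A hexamer stood in 34.4% of the promoters of tested genes, in 32.8% of those of genes called higher and in 33.3% of those of genes called lower. A direct repeat spaced by 2 or 5 bases stood in 0.085% of the promoters of tested genes. The letters CCGGAAG, the core bound by ETS factors such as ETV5, stood on either strand in 15.1% of the promoters of genes called higher, in 10.1% of those called lower and in 12.03% of all those tested. Kit, which was looked at too and is not printed, held 0 hexamers in each of its entries. Ret has no entry in the table.

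Across 15451 genes tested, 3844 (24.9%) were called higher and 3663 (23.7%) lower in KITpos at an adjusted p below 0.05, 48.6% in all. Changes of over 2-fold were called for 1916 genes (12.4%) that were higher and 2173 (14.1%) that were lower. The balance depended on scaling: 3391 were higher and 4043 lower without the 2 rows that hold most counts, 3546 and 3946 with RLE scaling, and 3697 and 4039 with DESeq2. The 5 KITpos libraries all lay above the 4 GFRA1pos libraries for 18.2% of the genes and all below for 18.9%. These shares are the background for each group of genes that follows. In bulk RNA, fewer cells that express a gene and less RNA of it per cell cannot be told apart.

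Genes of the GDNF and FGF receptor group split. Of 10 tested, 4 fell and 3 rose. Sdc4, encoding a cell surface proteoglycan that binds growth factors, was at 30.5, 55.9, 38.3, 46 and 37.9 CPM in KITpos, against 825, 735, 924 and 754 CPM in GFRA1pos (log2 fold change -4.28 ± 0.16 SE, adjusted p = 1.24e-12). Fgfr1, an FGF receptor, fell 2.38-fold to 15.8 ± 4.19 CPM in KITpos, against 37.5 ± 0.797 CPM in GFRA1pos (mean ± SD, n = 5 and 4; adjusted p = 2.28e-05). Fgfr3, another FGF receptor, was at 12.7, 20.4, 19.8, 19.96 and 19.2 CPM in KITpos and 11.1, 8.88, 14.2 and 8.7 CPM in GFRA1pos; it was called higher, though the ranges overlapped (log2 fold change 0.78 ± 0.23 SE, adjusted p = 0.00845), a call lost without the 2 libraries of each group that held most spermatid RNA. Sorl1, a sorting receptor that also binds GDNF and GFRA1, rose 3.52-fold, to 16.8 to 38 CPM in KITpos, against 5.94 to 9.23 CPM in GFRA1pos.

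Transcription factors linked to spermatogonial stem cells fell as a group: 16 of 18 tested were called lower and 2 higher, at a median log2 fold change of -3.41, beside a median of 0.07 over all genes. Etv5, an ETS factor induced by GDNF and FGF and needed for stem cell maintenance, was at 2.24, 7.42, 10.6, 4.09 and 1.39 CPM in KITpos, against 425, 414, 462 and 391.8 CPM in GFRA1pos (log2 fold change -6.31 ± 0.35 SE, adjusted p = 8.82e-11). Bcl6b, a repressor that is a GDNF target, was at 1.12, 6.15, 5.06, 4.09 and 3.12 CPM in KITpos, against 94.1, 94.7, 90.5 and 80.1 CPM in GFRA1pos (log2 fold change -4.50 ± 0.27 SE, adjusted p = 2.48e-10). Egr2, an immediate early zinc finger factor, was at 1.96, 3.48, 4.8, 2.05 and 5.2 CPM in KITpos and at 204, 202, 249.6 and 209 CPM in GFRA1pos (log2 fold change -5.95 ± 0.23 SE, adjusted p = 1.24e-12). In all 3 genes the highest KITpos library was an order of magnitude or more below the lowest GFRA1pos library.

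Low-level members of the same list moved the same way. Eomes, a T-box factor, was at 0.7, 1.51, 1.17, 1.19 and 0 CPM in KITpos and at 27.1, 29.3, 27.9 and 24.4 CPM in GFRA1pos. Nanos2, an RNA-binding repressor of differentiation, was at 0, 0.812, 1.56, 0 and 0.346 CPM in KITpos, with no counts in 2 libraries, and at 15, 6.93, 14.4 and 9.29 CPM in GFRA1pos. Lhx1, a LIM homeobox factor and GDNF target, fell to 1.14 ± 0.991 CPM in KITpos, against 17.8 ± 2.61 CPM in GFRA1pos (adjusted p = 2.48e-06). Id4, an inhibitor of bHLH factors that marks stem cells, fell 7.05-fold (adjusted p = 2.91e-07).

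Factors found more broadly in undifferentiated spermatogonia fell too. Zbtb16, the repressor PLZF, was at 31.5, 56.7, 44.5, 33.1 and 30.7 CPM in KITpos, against 333, 263, 317 and 249.7 CPM in GFRA1pos, 7.4-fold lower (log2 fold change -2.88 ± 0.20 SE, adjusted p = 1.99e-09). Foxo1, an effector of PI3 kinase signalling, was at 96.6, 152, 139.8, 121 and 102 CPM in KITpos, against 451, 328, 432 and 346 CPM in GFRA1pos, 3.18-fold lower (log2 fold change -1.67 ± 0.17 SE, adjusted p = 1.99e-07). The 2 members called higher, Taf4b (log2 fold change 0.76) and Bmi1 (0.38), a TFIID subunit and a Polycomb protein, were named after their values were seen.

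MAP kinase feedback genes, induced by ERK signalling and in large part its inhibitors, fell in 18 of 19 cases tested (23.7% of all genes), at a median log2 fold change of -2.85. Dusp6, a phosphatase that inactivates ERK, was at 0.84, 2.44, 1.82, 0.512 and 0 CPM in KITpos, against 126, 112, 133 and 114 CPM in GFRA1pos (log2 fold change -6.63 ± 0.35 SE, adjusted p = 5.20e-11). Spry4, a Sprouty inhibitor of receptor tyrosine kinase signalling, was at 0.14, 2.78, 2.85, 0 and 0 CPM in KITpos, with 2 libraries at 0 counts, against 111, 143, 116 and 98.7 CPM in GFRA1pos (log2 fold change -6.50 ± 0.53 SE, adjusted p = 1.36e-08). The lowest GFRA1pos library therefore stood far above the highest KITpos library in both.

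Other members also fell. Egr1, an immediate early factor, was at 10.2, 16.5, 17.8, 15.7 and 10.9 CPM in KITpos, against 356, 365, 444 and 309 CPM in GFRA1pos (25.9-fold lower, adjusted p = 1.24e-12). Il17rd, an inhibitor of FGF signalling also called Sef, was 13-fold lower, Dusp4 9.58-fold and Spry2 4.17-fold, without overlap between the groups. Egr1, Fos and Ier3 also belong to a list of dissociation and heat stress genes, of which 9 of 20 fell and 2 rose (median log2 fold change -0.79). In that list Zfp36, an mRNA-decay factor of the immediate early response, was 14.5-fold lower and Nr4a1, an immediate early nuclear receptor, 5.2-fold; the part of cell handling in these falls was not tested. Dusp2, named after its value was seen, was the member called higher, at 3.99 ± 1.29 CPM in KITpos and 0.865 ± 0.355 CPM in GFRA1pos.

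**Figure D2:**
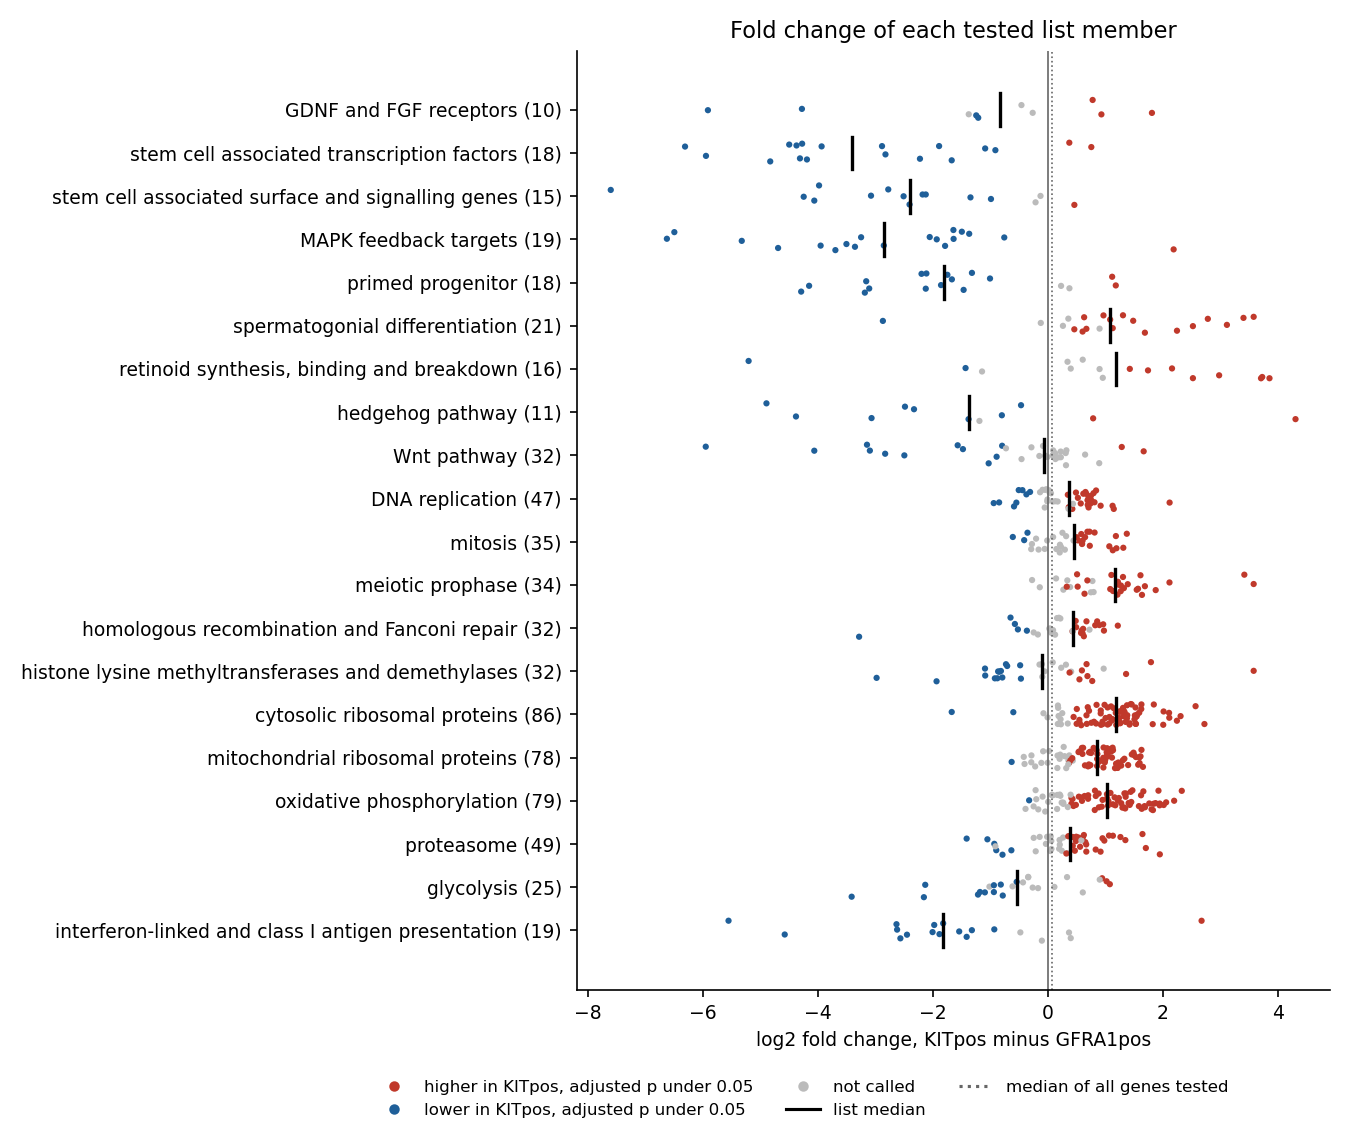
Log2 fold change (KITpos minus GFRA1pos) of each tested member of 20 gene lists, with the number tested in brackets; colour marks direction at an adjusted p below 0.05, grey is not called, black bars are list medians and the dotted line is the median of all genes. Stem-associated factors (median -3.41) and MAP kinase feedback genes (-2.85) lay to the left, and cytosolic ribosomal proteins (1.19), oxidative phosphorylation (1.04) and meiotic prophase genes (1.18) to the right.

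Stem-associated surface and signalling genes fell in 12 of 15 cases and rose in 1. Mcam, an adhesion molecule of the immunoglobulin family, was at 63.7, 118, 91.3, 69.1 and 80.0 CPM in KITpos, against 459, 467, 409.9 and 451 CPM in GFRA1pos (log2 fold change -2.40 ± 0.15 SE, adjusted p = 4.00e-10). Itga6, the laminin-binding α6 integrin used to enrich stem cells, was at 16.8, 28.2, 21.7, 26.1 and 15.6 CPM in KITpos, against 139.7, 112, 123 and 119 CPM in GFRA1pos (log2 fold change -2.51 ± 0.16 SE, adjusted p = 8.37e-10). Cdh1, E-cadherin, fell 4.39-fold to 7.65 to 17.7 CPM in KITpos, against 37.6 to 50.3 CPM in GFRA1pos. Itgb1, the common β1 integrin chain, was the member that rose, 1.38-fold (adjusted p = 0.00191). Epcam, a surface antigen of spermatogonia, was at 66 ± 17.4 CPM in KITpos and 71.9 ± 7.26 CPM in GFRA1pos (adjusted p = 0.524).

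Adhesion and matrix lists leaned lower too. Integrins were called lower for 7 (43.75%) and higher for 2 (12.5%) of 16, beside 23.7% and 24.9% of all genes. The falls included Itgb5 (9.38-fold) and Itgb3 (3.07-fold), which are among the β chains that can pair with αv. Among 24 cadherins and other homophilic adhesion molecules, 10 fell (41.7%) and 3 rose (12.5%). Cdh4, R-cadherin, was at 0 to 1.17 CPM in KITpos and 20.3 to 30.8 CPM in GFRA1pos. Alcam, an immunoglobulin adhesion molecule, was at 9.66 to 26.3 CPM in KITpos and 1.27 to 2.52 CPM in GFRA1pos. Collagens and laminins counted 9 falls (42.9%) and 3 rises (14.3%) among 21. Lamc1 and Lamb1, chains of the basement membrane laminins, were 6.84-fold and 5.86-fold lower in KITpos. Axon guidance genes counted 10 falls (34.5%) and 6 rises (20.7%) among 29, closer to the shares over all genes. The ephrin receptor gene Epha2 was at 2.66 ± 1.64 CPM in KITpos and 49.8 ± 8.47 CPM in GFRA1pos. Endothelial markers, lower in KITpos, stand beside these adhesion and matrix counts.

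Genes of primed progenitors, the GFRA1-poor cells that are still undifferentiated, fell in 14 of 18 cases and rose in 2. Lin28a, an RNA-binding protein, was at 84.2, 111, 83.8, 97.4 and 77.8 CPM in KITpos, against 314, 281, 357 and 266 CPM in GFRA1pos (log2 fold change -1.74 ± 0.14 SE, adjusted p = 1.27e-08). Sall4, a zinc finger factor of undifferentiated spermatogonia, was at 96, 234, 140.4, 122 and 78.8 CPM in KITpos, against 619.5, 506, 679.9 and 518 CPM in GFRA1pos (log2 fold change -2.11 ± 0.23 SE, adjusted p = 5.22e-07). Glis3, a Krüppel-like factor, fell 19.8-fold and Foxf1, a forkhead factor, 18.1-fold, each without overlap.

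Several of these genes were highest in neither of the 2 populations. Neurog3, a bHLH factor of progenitors, averaged 2.47 ± 1.56 CPM in KITpos, 39.3 ± 8.47 CPM in GFRA1neg and 5.08 ± 1.49 CPM in GFRA1pos (SD, n = 5, 4 and 4). Sox3, a factor required for progenitor formation, averaged 3.24 ± 1.98, 28.9 ± 5.63 and 8.26 ± 1.62 CPM in that order of groups, Nanos3 1.77 ± 0.661, 16.4 ± 3.81 and 5.63 ± 1.16 CPM, and Lin28a 90.8 ± 13.4, 688 ± 128 and 305 ± 40.5 CPM. Rarg, the retinoic acid receptor of progenitors, averaged 11.1 ± 1.97 CPM in KITpos, 44 ± 8.53 CPM in GFRA1neg and 8.56 ± 2.54 CPM in GFRA1pos; KITpos and GFRA1pos overlapped and were not called different (adjusted p = 0.165). For Neurog3 the ranges of KITpos and GFRA1pos overlapped, at 0.346 to 4.34 and 3.42 to 6.94 CPM, and its call (adjusted p = 0.0351) was lost under 10 of the 24 other settings tried.

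**Figure D3:**
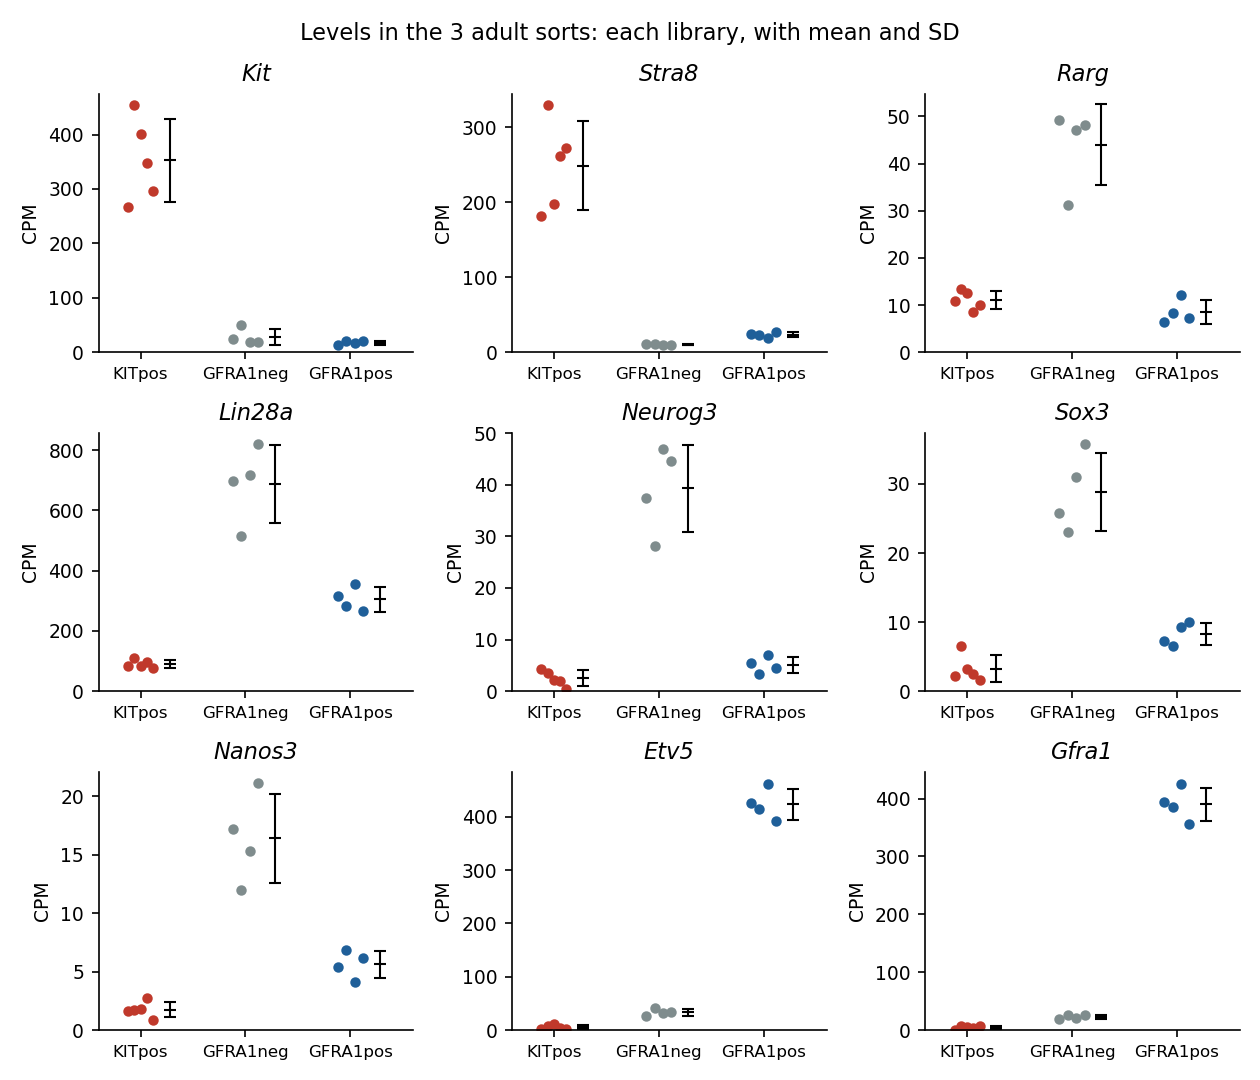
Normalized level (CPM, linear axes from 0) of 9 genes in the KITpos (n = 5), GFRA1neg (n = 4) and GFRA1pos (n = 4) libraries, with mean and SD to the right of the points. Kit and Stra8 were highest in KITpos, Etv5 and Gfra1 in GFRA1pos, and Rarg, Lin28a, Neurog3, Sox3 and Nanos3 in GFRA1neg.

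Differentiation genes rose in 16 of 21 cases (24.9% of all genes), at a median log2 fold change of 1.09, and 1 fell. Rhox13, an X-linked homeobox gene of differentiating spermatogonia, was at 43, 38.1, 37.9, 59.5 and 45 CPM in KITpos, against 7.28, 7.22, 5.33 and 6 CPM in GFRA1pos (log2 fold change 2.79 ± 0.22 SE, adjusted p = 1.02e-08). Crabp1, a cytoplasmic retinoic acid-binding protein, was at 289, 199.6, 161, 227 and 158 CPM in KITpos, against 32.1, 33.8, 37.3 and 40.3 CPM in GFRA1pos (log2 fold change 2.53 ± 0.23 SE, adjusted p = 4.21e-08). Dmrtb1, a DM-domain factor that acts at the step from mitosis to meiosis, was at 103, 66.3, 85.1, 81.4 and 68.2 CPM in KITpos and varied over 2.57, 18.9, 10.4 and 35.9 CPM in GFRA1pos (log2 fold change 2.25 ± 0.55 SE, adjusted p = 0.00235). All KITpos libraries lay above all GFRA1pos libraries for these 3 genes.

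Other regulators rose by under 2-fold. Dmrt1, which holds off meiosis in spermatogonia, was at 103, 139, 104, 122 and 132 CPM in KITpos, against 88.5, 60.1, 89.8 and 70.3 CPM in GFRA1pos, 1.55-fold higher (log2 fold change 0.64 ± 0.14 SE, adjusted p = 0.00125). Dnmt3b, a DNA methyltransferase that appears as spermatogonia differentiate, rose 1.59-fold (adjusted p = 0.00143). Sohlh1, a bHLH factor required for differentiation, was at 82.3, 75.4, 56.7, 76.8 and 29.6 CPM in KITpos and 30.5, 25.5, 39.8 and 35.2 CPM in GFRA1pos; it was called 1.96-fold higher with overlapping ranges. Its partner Sohlh2 rose 1.38-fold (adjusted p = 0.0263), a call lost under 9 of the 24 other settings. The member that fell was Ccnd2, the cyclin D2 that has been reported to appear with KIT, at 41.3, 67.7, 51.9, 41.8 and 36 CPM in KITpos, against 360.5, 306, 386 and 345 CPM in GFRA1pos (log2 fold change -2.87 ± 0.16 SE, adjusted p = 1.34e-10).

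**Figure D4:**
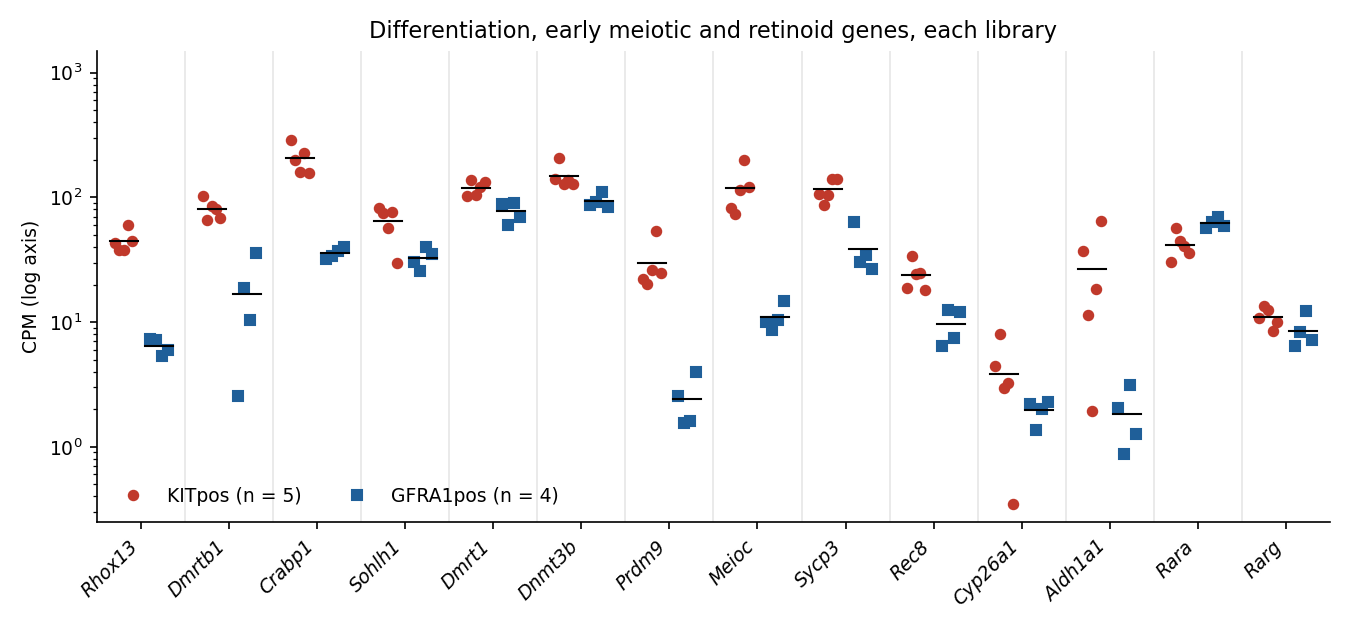
Normalized level (CPM, log axis) of differentiation, early meiotic and retinoid genes in each KITpos (circles, n = 5) and GFRA1pos (squares, n = 4) library; lines are means. Rhox13, Crabp1, Prdm9 and Meioc separated the groups widely, whereas Rarg and Cyp26a1 overlapped and were not called.

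Retinoid genes moved both ways. Of 16 genes of retinoid synthesis, binding and breakdown, 8 rose and 2 fell, at a median log2 fold change of 1.19. Rbp4, the secreted retinol-binding protein, rose 4.49-fold (adjusted p = 6.18e-07). Cyp26b1, an enzyme that breaks retinoic acid down, was at 14.1, 12.3, 11.9, 13.3 and 3.64 CPM in KITpos, against 0.71, 0.195, 3.42 and 1.27 CPM in GFRA1pos (log2 fold change 2.98 ± 0.55 SE, adjusted p = 1.70e-04). Cyp26a1, whose promoter is printed above with its direct repeat, was at 4.48, 8, 2.98, 3.24 and 0.346 CPM in KITpos and 2.22, 1.37, 2.01 and 2.28 CPM in GFRA1pos, and it missed the threshold (log2 fold change 0.96 ± 0.52 SE, adjusted p = 0.138).

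The 3 enzymes that make retinoic acid from retinaldehyde differed. Aldh1a1 was at 37, 11.4, 1.95, 18.6 and 64.8 CPM in KITpos, a wide spread, and at 2.04, 0.878, 3.12 and 1.27 CPM in GFRA1pos (log2 fold change 3.86 ± 0.82 SE, adjusted p = 7.11e-04); Leydig and Sertoli cells also express it, and its highest KITpos libraries were among those with the most summed Leydig marker RNA. Without the 2 libraries of each group that held most spermatid RNA the Aldh1a1 call was lost. In KITpos those were replicates 1 and 5, the 2 with the highest Aldh1a1 and the highest Leydig sums. Aldh1a2 was at 54.1 ± 10.9 CPM in KITpos and 41 ± 4.74 CPM in GFRA1pos (adjusted p = 0.102). Aldh1a3 fell to 0.7, 0.116, 0.778, 0 and 0 CPM in KITpos, against 10.3, 12.9, 16.7 and 11.6 CPM in GFRA1pos (log2 fold change -5.20 ± 0.60 SE, adjusted p = 1.01e-06). Dhrs3, which returns retinaldehyde to retinol, was 2.7-fold lower.

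Receptors for the ligand moved both ways. Rara, the receptor of differentiating and supporting cells, was at 30.5, 57.2, 44.5, 40.8 and 35.9 CPM in KITpos and 56.7, 63.4, 69.6 and 58.9 CPM in GFRA1pos (log2 fold change -0.57 ± 0.15 SE, adjusted p = 0.00381), a call lost without the 2 libraries of each group richest in spermatid RNA and against a fold threshold of 1.5. Its partner Rxra fell 2.77-fold to 61 to 98.7 CPM, against 198 to 238 CPM in GFRA1pos. Of 4 receptor genes tested, 2 fell and 1, Rxrb, rose (log2 fold change 0.59 ± 0.18 SE, adjusted p = 0.00999).

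Hedgehog pathway genes counted 8 falls and 2 rises among 11. Ptch1, the receptor and a target gene of the pathway, was at 2.24, 6.15, 4.93, 1.36 and 2.6 CPM in KITpos, 312 ± 48.5 CPM in GFRA1neg (mean ± SD) and 87.6, 63, 89.3 and 59.7 CPM in GFRA1pos (log2 fold change -4.38 ± 0.27 SE, adjusted p = 4.60e-10 for KITpos minus GFRA1pos). Gli1, a target and effector, fell 5.55-fold. Gli2, the main activator of the pathway, went the other way, at 20.6, 29.2, 28.1, 8.7 and 18 CPM in KITpos, against 0.976, 0.878, 0.403 and 1.86 CPM in GFRA1pos (log2 fold change 4.31 ± 0.45 SE, adjusted p = 3.00e-07), as did Smo, the signal transducer, by 1.73-fold.

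Notch genes were called higher in 6 and lower in 6 of 20 cases (30.0% each), near the 24.9% and 23.7% of all genes. Notch1, a receptor, was at 7.45 to 17.2 CPM in KITpos and 41.9 to 53.4 CPM in GFRA1pos, and Hes1, a target, was 3.11-fold lower. Jag2, a ligand, was 2.95-fold higher. Wnt genes counted 11 falls (34.4%) and 2 rises (6.25%) among 32. The falls included Tcf7l2, a nuclear effector, at 3.8 ± 2.72 CPM in KITpos and 34.3 ± 6.49 CPM in GFRA1pos, and Dkk3, 8.57-fold lower. Neither Ctnnb1, β-catenin (adjusted p = 0.356), nor Axin2, a common target gene (adjusted p = 0.905), was called. Of 23 BMP and TGF-beta genes 9 fell (39.1%) and 5 rose (21.7%), at a median log2 fold change of 0.03, beside 0.07 over all genes. Fst, an activin antagonist, was 13.6-fold lower, Smad7, an inhibitory Smad, 3.21-fold lower, and Id3, a BMP target, 11.9-fold lower. Tgfbr1, a receptor, was at 86.1, 72.8, 104, 156 and 117 CPM in KITpos, against 40.5, 31.8, 29.3 and 34.9 CPM in GFRA1pos.

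Downstream of KIT, genes of PI3 kinase and mTORC1 signalling counted 11 falls (39.3%) and 5 rises (17.9%) among 28, at a median log2 fold change of -0.15. Over all genes the shares were 23.7% and 24.9%. Pik3cd, a catalytic subunit of PI3 kinase, fell 4.95-fold (adjusted p = 8.24e-08). Rheb, the small GTPase that switches on mTORC1, was at 88.3, 66.4, 68.1, 88.5 and 81.2 CPM in KITpos, against 29.3, 24.8, 25.3 and 27.7 CPM in GFRA1pos (log2 fold change 1.55 ± 0.18 SE, adjusted p = 8.13e-07). Eif4ebp1, a translational repressor that mTORC1 inactivates, rose 1.94-fold. Mtor itself was at 273 ± 76.9 CPM in KITpos and 291 ± 28.4 CPM in GFRA1pos (adjusted p = 0.64).

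Cell cycle genes leaned higher. DNA replication genes counted 24 rises and 8 falls among 47 (median log2 fold change 0.37), and mitosis genes counted 17 rises and 3 falls among 35 (median 0.45). Without the 2 libraries of each group that held most spermatid RNA, 14 replication genes were called higher and 4 lower. Pcna, the sliding clamp, was at 387, 291, 266, 402 and 365 CPM in KITpos, against 158, 163, 146 and 148 CPM in GFRA1pos (log2 fold change 1.15 ± 0.14 SE, adjusted p = 1.85e-06). Gmnn, geminin, which stops re-replication, rose 4.36-fold (adjusted p = 3.35e-08). Mcm6, a subunit of the replicative helicase, was at 264 ± 25.4 CPM in KITpos and 265 ± 22.3 CPM in GFRA1pos and was not called (adjusted p = 0.987), and Mcm10, a replication initiation factor, fell 1.8-fold. Mki67 was at 163, 107, 161, 254 and 424 CPM in KITpos and 59.7, 79.7, 116 and 100.2 CPM in GFRA1pos, overlapping ranges with a call (log2 fold change 1.32 ± 0.38 SE, adjusted p = 0.00764) that was lost without the same libraries. Birc5 (survivin) and Kif23, which act at cytokinesis, rose 2.29-fold and 2.28-fold; Plk1 and Ccnb1, the polo-like kinase and cyclin B1, were not called (log2 fold change -0.05 and 0.21).

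G1 regulators moved both ways. Ccne2, cyclin E2, was at 101, 99.7, 101, 182 and 161 CPM in KITpos, against 19.2, 15.4, 16.2 and 16.6 CPM in GFRA1pos (log2 fold change 2.93 ± 0.23 SE, adjusted p = 7.48e-09). Cdkn1b, the inhibitor p27, was at 0.56, 0.348, 0.259, 0 and 1.04 CPM in KITpos, against 10.0, 9.76, 9.26 and 7.68 CPM in GFRA1pos (log2 fold change -4.37 ± 0.41 SE, adjusted p = 8.77e-08). Cdk6, a kinase of D-type cyclins, rose 3.33-fold and Ccnd1 1.31-fold, the second call being lost without the libraries richest in spermatid RNA and against a fold threshold of 1.5, while Ccnd2 fell as given above and Ccnd3 was not called (adjusted p = 0.125). Over the 21 genes of the list, 9 rose and 6 fell, and 5 were called higher without the 2 libraries of each group that held most spermatid RNA. In the MYC network 4 of 12 fell (33.3%) and 2 rose (16.7%), beside 23.7% and 24.9% of all genes. Max, the shared partner, was at 89.5 to 110 CPM in KITpos and 264 to 351 CPM in GFRA1pos. Mycn was 1.57-fold lower, and Myc was at 0 to 0.389 CPM in KITpos (6 reads in all) and 1.69 to 3.72 CPM in GFRA1pos.

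Genes of meiotic prophase rose in 25 of 34 cases and fell in none, at a median log2 fold change of 1.18. Prdm9, the histone methyltransferase that places recombination hotspots, was at 22.3, 20.3, 26.3, 54.2 and 24.6 CPM in KITpos, against 2.57, 1.56, 1.61 and 3.97 CPM in GFRA1pos (log2 fold change 3.59 ± 0.36 SE, adjusted p = 1.55e-07). Meioc, which holds cells in meiotic prophase, was at 81.8, 73.6, 115, 199 and 122 CPM in KITpos, against 10.0, 8.59, 10.5 and 14.9 CPM in GFRA1pos (log2 fold change 3.42 ± 0.32 SE, adjusted p = 8.56e-08). Rec8, a meiotic cohesin, was at 18.6, 33.7, 24.4, 24.7 and 18.2 CPM in KITpos, against 6.48, 12.6, 7.45 and 12.1 CPM in GFRA1pos (log2 fold change 1.31 ± 0.31 SE, adjusted p = 0.00173), and Dmc1, the meiotic recombinase, rose 2.16-fold. For each of these 4 the libraries of the 2 groups did not overlap.

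Genes of the synaptonemal complex were also called higher. Sycp3, a lateral element protein, was at 107, 86.2, 104, 140.5 and 141 CPM in KITpos and 63.9, 30.4, 34.3 and 26.8 CPM in GFRA1pos (log2 fold change 1.57 ± 0.36 SE, adjusted p = 0.00145), a call lost without the 2 libraries of each group that held most spermatid RNA. Sycp1, the central filament protein, was at 86, 52.9, 71.3, 121 and 146 CPM in KITpos and 47.9, 31.5, 51.7 and 41.9 CPM in GFRA1pos (log2 fold change 1.14 ± 0.38 SE, adjusted p = 0.0182), a call lost without GFRA1pos replicate 2, without KITpos replicate 5, against a fold threshold of 1.5 and in both fits without the libraries richest in spermatid RNA. Spermatocyte markers that belong to later prophase summed to 522 to 1154 CPM in KITpos and 227 to 1281 CPM in GFRA1pos, and 4 of 15 were called higher; their part in the meiotic counts was not tested. Recombination and Fanconi repair genes counted 15 rises and 5 falls among 32, with Atm, the kinase that answers double-strand breaks, at 285 ± 90.8 CPM in KITpos and 146 ± 11.4 CPM in GFRA1pos, Rbbp8 2.33-fold and Nbn 1.98-fold higher, and Mdc1 not called (adjusted p = 0.88).

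Germ cell RNA-binding proteins counted 10 rises and 5 falls among 20. Dazl, needed for germ cell identity and translation, was at 535, 479.9, 548, 631 and 618 CPM in KITpos, against 295, 219, 235 and 308 CPM in GFRA1pos (log2 fold change 1.09 ± 0.16 SE, adjusted p = 1.51e-05). Igf2bp1, an mRNA-stabilizing protein, fell 2.74-fold (adjusted p = 2.75e-07). In the piRNA list 6 of 24 rose and 6 fell (25.0% each), near the 24.9% and 23.7% of all genes. Its member Piwil4, the nuclear PIWI protein MIWI2, was at 3.07 to 8.49 CPM in KITpos and 17.9 to 25 CPM in GFRA1pos. Ddx4, the germ cell helicase VASA, was at 132 ± 25.9 CPM in KITpos and 124 ± 16.5 CPM in GFRA1pos and was not called.

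Chromatin regulators were called in both directions. Shares higher and lower were 33.3% and 16.7% for DNA methylation genes and 25.8% and 32.3% for Polycomb genes. For histone lysine methyltransferases and demethylases they were 28.1% and 43.75%, and over all genes 24.9% and 23.7%. DNA methylation genes counted 6 rises and 3 falls among 18: Hells, a remodeler that aids methylation, rose 2.33-fold, Tet3, a dioxygenase of methylcytosine, 1.78-fold, and Uhrf1, which recruits the maintenance enzyme, fell 1.62-fold, while Dnmt3a was not called (adjusted p = 0.792). Polycomb genes counted 8 rises and 10 falls among 31; Cbx7, a reader of methylated H3K27, was at 4.62, 6.03, 5.45, 4.09 and 7.97 CPM in KITpos, against 34.2, 45.7, 56.8 and 45.5 CPM in GFRA1pos (log2 fold change -3.01 ± 0.25 SE, adjusted p = 2.20e-08), and neither Ezh2 (adjusted p = 0.281) nor Scml2 (adjusted p = 0.163) was called. Among histone lysine methyltransferases and demethylases 14 of 32 fell and 9 rose. Setd1b and Kmt2d, H3K4 methyltransferases, were 8.02-fold and 3.83-fold lower; Setdb2 was 2.58-fold higher and Kdm5b was not called (adjusted p = 0.336).

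Imprinted genes counted 13 falls and 2 rises among 24. H19, a maternally expressed long non-coding RNA, was at 12.3, 11.5, 13.9, 17.7 and 14.9 CPM in KITpos, against 85.3, 110.5, 93.3 and 95.2 CPM in GFRA1pos (log2 fold change -2.78 ± 0.15 SE, adjusted p = 9.00e-11). Replication-dependent and linker histone genes counted 23 rises and 17 falls among 69 (33.3% and 24.6%, beside 24.9% and 23.7% of all genes). H2bc14, a histone H2B gene, reached 2027, 1848, 1187, 3915 and 1178 CPM in KITpos, against 184, 234, 222 and 154 CPM in GFRA1pos (log2 fold change 3.35 ± 0.34 SE, adjusted p = 2.08e-07); histone genes are near-identical copies and the counting of shared reads is not given in the sources used here, so the value of a single copy is uncertain.

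Most ribosomal protein and oxidative phosphorylation genes were called higher. Of 86 cytosolic ribosomal protein genes tested, 74 were called higher and 2 lower (median log2 fold change 1.19). Rpl22, of the large subunit, was at 729.8, 586, 444, 755 and 604 CPM in KITpos, against 118, 118, 86.5 and 96.4 CPM in GFRA1pos (log2 fold change 2.57 ± 0.22 SE, adjusted p = 2.18e-08). Rps27l, a paralogue of a small subunit protein, rose 6.63-fold (adjusted p = 1.04e-08) and Rpl36 4.97-fold (adjusted p = 1.77e-08). Rpl4 was at 1325 ± 138 CPM in KITpos and 1326 ± 158 CPM in GFRA1pos (adjusted p = 0.996), and the 2 lower members, named after their values were seen, were Rpl5 (log2 fold change -0.60) and Rps4x (-1.67). Ribosomal proteins have many processed pseudogenes, so single values carry that uncertainty.

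Mitochondrial lists moved alike. Oxidative phosphorylation genes rose in 59 of 79 cases and 1, Sdha, fell (log2 fold change -0.32; named after its value was seen), with a median of 1.04. Atp5e, the small ε subunit of ATP synthase, was at 294, 223, 133, 323 and 246 CPM in KITpos, against 45.6, 52.5, 42.5 and 52.7 CPM in GFRA1pos (log2 fold change 2.33 ± 0.22 SE, adjusted p = 9.06e-08), Uqcr11, of complex III, was 4.6-fold higher and Ndufb7, of complex I, 3.86-fold, whereas Atp5b, the catalytic β subunit, was at 1659 ± 138 CPM in KITpos and 1858 ± 188 CPM in GFRA1pos (adjusted p = 0.309). Mitochondrial ribosomal proteins counted 57 rises and 1 fall among 78 (median 0.86), among them Mrps16 (3.16-fold) and Mrpl18 (3.03-fold). Proteasome genes counted 26 rises and 6 falls among 49 (median 0.39), with Psma1, of the core ring, at 112 ± 16.5 CPM in KITpos and 35.5 ± 1.35 CPM in GFRA1pos and Psmb3 3.87-fold higher. Ribosome biogenesis and RNA polymerase I genes, in contrast, counted 7 rises and 10 falls among 38 (median -0.03).

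Transcript length moved with the same contrast. Over 14336 tested genes with a protein-coding GENCODE transcript, taking each gene's median transcript length, the median log2 fold change was 0.29 below 1 kb (2603 genes), 0.15 from 1 to 2 kb, 0.01 from 2 to 3 kb, -0.07 from 3 to 4 kb and -0.12 above 4 kb. Without the ribosomal protein and respiratory chain genes it was 0.23 below 1 kb. The median length was 696.5 bases for cytosolic ribosomal proteins, 683.0 for oxidative phosphorylation, 1051.5 for mitochondrial ribosomal proteins and 2161.0 for all genes with a length. The median log2 fold changes of these 3 lists were 0.86 to 1.19. Lengths below 1 kb held for 80.0% of cytosolic ribosomal protein, 74.7% of oxidative phosphorylation and 46.2% of mitochondrial ribosomal protein genes, so the bin below 1 kb is no matched comparison. The part of transcript length was not tested.

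**Figure D5:**
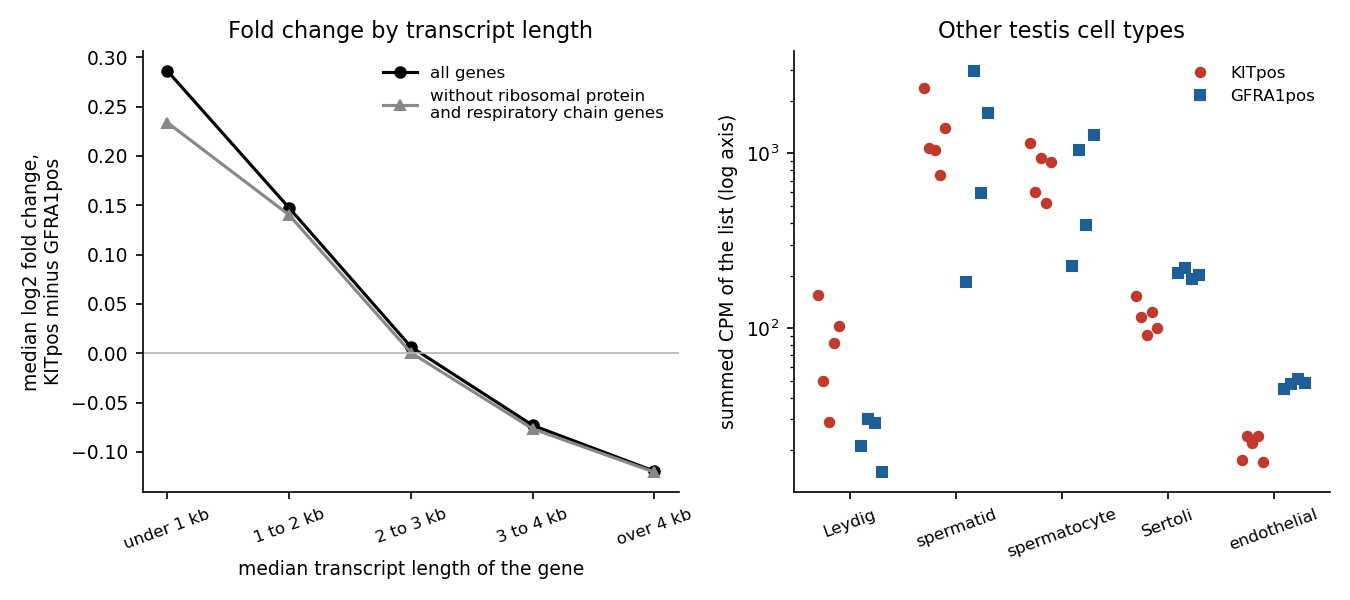
Left, median log2 fold change (KITpos minus GFRA1pos) of genes binned by median transcript length, for all genes and without ribosomal protein and respiratory chain genes; the median ran from 0.29 below 1 kb to -0.12 above 4 kb. Right, summed CPM (log axis) of marker lists of other testis cell types in each KITpos (circles) and GFRA1pos (squares) library; Leydig sums were 28.9 to 154 in KITpos and 14.9 to 30.0 in GFRA1pos, endothelial sums did not overlap, and spermatid sums spread across both groups.

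Glycolysis genes counted 11 falls and 3 rises among 25, at a median log2 fold change of -0.54. Slc2a1, the glucose transporter GLUT1, was at 17.4, 26.1, 17.6, 13.6 and 13.2 CPM in KITpos, against 68.9, 81.2, 103 and 62.4 CPM in GFRA1pos (log2 fold change -2.15 ± 0.19 SE, adjusted p = 3.92e-08). Pkm, pyruvate kinase, was at 50.3, 90.6, 60.2, 86.8 and 66.3 CPM in KITpos, against 301, 300, 342 and 298 CPM in GFRA1pos (log2 fold change -2.13 ± 0.15 SE, adjusted p = 2.16e-09). Pdk1, a kinase that inhibits pyruvate dehydrogenase, was at 4.9, 9.16, 9.6, 10.2 and 8.14 CPM in KITpos, against 106, 76.4, 90.7 and 84.2 CPM in GFRA1pos (log2 fold change -3.41 ± 0.18 SE, adjusted p = 5.80e-11). Pdk3, another such kinase, was among the 3 rises, at 130 ± 21.9 CPM in KITpos and 61.6 ± 1.66 CPM in GFRA1pos (mean ± SD). The groups did not overlap for Pdk3 (log2 fold change 1.08 ± 0.13 SE, adjusted p = 1.85e-06).

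Neither Gapdh (1518 ± 229.6 CPM in KITpos and 1818 ± 247 CPM in GFRA1pos, adjusted p = 0.18) nor Ldha (adjusted p = 0.202) was called. Amino acid transporters counted 11 falls and 3 rises among 20. Slc38a1, a glutamine transporter, was at 1.96, 1.74, 1.3, 0.512 and 2.25 CPM in KITpos, against 52.4, 53.7, 53.8 and 52.8 CPM in GFRA1pos (log2 fold change -5.08 ± 0.27 SE, adjusted p = 6.43e-11), and Slc7a5, the leucine transporter that feeds mTORC1, fell 2.27-fold.

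Cell death and damage genes were called in both directions, at shares near those over all genes (24.9% higher and 23.7% lower). BCL2 family genes were higher for 25.0% and lower for 31.25%, and p53 network genes for 29.4% each. Of 16 BCL2 family genes, 4 rose and 5 fell: Bax, a pore-forming killer, was at 51.8, 49.2, 37.9, 51.7 and 33.8 CPM in KITpos, against 13.5, 18.2, 17.7 and 15 CPM in GFRA1pos (log2 fold change 1.48 ± 0.18 SE, adjusted p = 1.90e-06), while Pmaip1, the BH3-only protein NOXA, was at 0.56 to 3.46 CPM in KITpos and 14.2 to 31.7 CPM in GFRA1pos. Bcl2 and Bcl2l1, which protect cells, were not called (adjusted p = 0.145 and 0.213). In the p53 network 5 of 17 rose and 5 fell. Trp53 missed the threshold at 90.9 ± 18 CPM in KITpos and 119 ± 16 CPM in GFRA1pos (adjusted p = 0.0589), and it was called lower under 8 of the 24 other settings; Cdkn1a, the inhibitor p21, missed it at 6.03 to 16.1 CPM in KITpos and 14.8 to 24.4 CPM in GFRA1pos (adjusted p = 0.0566) and was called lower under 10. The p53 targets Ccng1 (3.65-fold higher), Zmat3 (7.17-fold lower) and Sesn1 (3.11-fold lower) did not move one way, and the stress gene Gadd45b rose 5.64-fold.

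Interferon-linked and class I antigen presentation genes counted 14 falls and 1 rise among 19, at a median log2 fold change of -1.82. Tapbp, which loads peptides on class I molecules, was at 11.1, 15, 9.08, 7.33 and 7.79 CPM in KITpos, against 32.2, 29.8, 45.1 and 42.3 CPM in GFRA1pos (log2 fold change -1.88 ± 0.20 SE, adjusted p = 4.11e-07). Irgm1, an interferon-inducible GTPase, was at 0.14, 0.696, 0.13, 0.682 and 0.52 CPM in KITpos, against 9.76, 11.1, 10.8 and 10.5 CPM in GFRA1pos (log2 fold change -4.58 ± 0.39 SE, adjusted p = 2.16e-08). Gbp2, a guanylate-binding protein, was at 0 to 0.58 CPM in KITpos (6 reads in all) and 6.15 to 10.3 CPM in GFRA1pos, and averaged 30.8 ± 11.2 CPM in GFRA1neg. Macrophage and leukocyte markers summed to 17.8 to 33.3 CPM in KITpos and 21.9 to 30.4 CPM in GFRA1pos. Of the 12, none was at 0 in all 9 libraries, and of 4 tested, 2 were called lower and none higher: Mrc1, a mannose receptor, was 5.76-fold lower and Cd68, a lysosomal protein of macrophages, 2.52-fold, both without overlap. Their part in the interferon-linked counts was not tested.

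Telomerase and shelterin genes, of interest because the reporter is a Tert allele, counted 9 rises and 5 falls among 19; 5 were called higher without the 2 libraries of each group that held most spermatid RNA. Tinf2, the shelterin hub, was at 75.5 ± 9.53 CPM in KITpos and 28.5 ± 4.25 CPM in GFRA1pos (adjusted p = 6.22e-06). Of 2 proteins of the telomerase RNA particle, Nop10 was 2.4-fold higher and Gar1 2.19-fold lower. Tert itself was not called, as given above.

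By size alone, the 15 largest rises and 15 largest falls whose mean was 20 CPM or more in either group reached beyond these lists. Cited1, a transcriptional co-regulator, had the largest rise of these, at 152, 127, 87.4, 150.3 and 91.8 CPM in KITpos, against 3.46, 2.63, 3.02 and 2.62 CPM in GFRA1pos (log2 fold change 5.37 ± 0.38 SE, adjusted p = 2.46e-09). Esx1, an X-linked homeobox gene, was at 51, 61, 76.6, 44.9 and 37.4 CPM in KITpos, against 2.93, 2.44, 3.22 and 5.83 CPM in GFRA1pos (log2 fold change 3.90 ± 0.36 SE, adjusted p = 5.60e-08). Scube2, a secreted protein that releases hedgehog ligands, was 12.3-fold higher, Ppp4r4, a phosphatase 4 subunit, 11.2-fold, and 1700013H16Rik 10.9-fold. Fgf11, an intracellular FGF homologue, varied over 7, 16.1, 17, 43.8 and 36 CPM in KITpos, against 2.04, 0.488, 3.22 and 1.01 CPM in GFRA1pos. Dmrtc1c1 and Dmrtc1c2 had the same counts in every library and stand for one signal, 10.1-fold higher.

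The largest fall of these was that of F2rl1, the protease-activated receptor PAR2, at 0.14, 0.696, 0.908, 0.171 and 0 CPM in KITpos, against 58.4, 67.2, 60.1 and 42.9 CPM in GFRA1pos (log2 fold change -7.04 ± 0.40 SE, adjusted p = 9.99e-11). Mpzl2, an adhesion protein, was at 0.28, 0.464, 1.56, 0.171 and 0.173 CPM in KITpos, against 45.6, 66.3, 81.9 and 72.2 CPM in GFRA1pos (log2 fold change -6.85 ± 0.42 SE, adjusted p = 3.72e-10). Foxc2, a forkhead factor reported in quiescent spermatogonial stem cells, was at 0, 1.28, 1.17, 0.171 and 0 CPM in KITpos, with 2 libraries at 0 counts, against 66.3, 55, 65.5 and 52.2 CPM in GFRA1pos (log2 fold change -6.65 ± 0.47 SE, adjusted p = 2.12e-09). Further down, Cd93, a receptor known from endothelium, was at 0 to 1.82 CPM in KITpos and 53.8 to 67.4 CPM in GFRA1pos. Of 8 endothelial markers tested, Pecam1, Cdh5, Kdr, Tek and Flt1 were also called lower and 3 were not called. The part of endothelial cells in the fall of Cd93 was not tested. Gprc5c, an orphan receptor, was 64.7-fold lower, Nefm, a neurofilament gene, 65.3-fold and Gm10007 57-fold. Mir6236 was called but spread over 186, 160.1, 26 and 12.1 CPM in GFRA1pos, and limma voom did not call it.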

How the data were processed

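Small amounts of RNA from the sorts were amplified (Nugen Ovation V2) before paired-end sequencing, per the labels' protocols. The authors deposited 1 table of raw counts per gene, 24013 rows named by gene number, of which 23930 matched a symbol. The submitters' processing notes name Trim Galore, TopHat2 2.0.4, Bowtie2 2.0.0-6 and the mm9 build; how reads were counted, on which annotation and with or without strand, is not given in the sources used here. The column taken as GFRA1pos replicate 1 is spelled GFP in place of GFR. As deposited, 1179 rows had counts equal to those of another row. All 17 libraries were fitted with edgeR 4.0.16 (TMM scaling, filterByExpr with a minimum count of 10, quasi-likelihood test, Benjamini-Hochberg threshold 0.05); limma 3.58.1 and DESeq2 1.42.0 gave alternatives. SE is the absolute log2 fold change divided by the root of F, and folds are ratios of mean CPM. Depths of 5178352 to 11567191 counts bound the precision of low genes. The labels name no batch or date. Genes named are the sort genes and markers, the 15 largest non-overlapping rises and falls with a mean of at least 20 CPM, preset anchor genes of 59 lists, up to 4 members a list with the smallest adjusted p, and abundant members that did not pass. Lists and members were chosen with earlier results of these data known. Some named genes are not reported here. The steps were tested on simulated data.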

Additional observations from a re-analysis of the deposited data

Results flagged for a closer look

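In 24 of 384 group values, 1 library stood apart from the others of its group by Dixon's criterion; chance gives about 1 in 20. In KITpos replicate 1 these were Fgfr3 (12.7 CPM), Tet3 (77.2 CPM), Hsd17b3 (9.66 CPM) and the summed red blood cell markers (21.8 CPM). In KITpos replicate 2 they were Cdh1 (17.7 CPM), Dnmt3b (208.5 CPM), Itgb3 (21.0 CPM), Gbp2 (0.58 CPM), Trf (4.29 CPM) and Mcm10 (48.1 CPM). KITpos replicate 3 stood apart for Aldh1a2 (72.8 CPM) and Mpzl2 (1.56 CPM), replicate 4 for Prdm9 (54.2 CPM) and Itgb5 (2.73 CPM), and replicate 5 for Epcam (95.6 CPM) and Cyp26b1 (3.64 CPM). Among GFRA1pos libraries, replicate 3 stood apart for Egr2 (249.6 CPM), Smo (36.1 CPM), Pkm (342 CPM), Gar1 (93.9 CPM), Nr4a1 (50.1 CPM) and Smad7 (32.2 CPM), replicate 2 for Piwil4 (17.9 CPM) and replicate 4 for Atm (163 CPM).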

How the results depend on the processing

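Against a fold threshold of 1.5 (glmTreat), 1807 genes were called higher and 2072 lower in KITpos. Under the other settings both counts stayed within 1.5 times those reported; leaving out 1 library gave 3400 to 3766 higher and 3342 to 3814 lower. Scaling turned the balance: without the 2 rows that hold most counts 3391 were higher and 4043 lower, with RLE scaling 3546 and 3946, and with DESeq2 3697 and 4039. Of 183 named genes, 157 were called. No call changed direction under the 24 settings, and 13 genes lost their call under a setting other than the fold threshold. A change of sign in a gene without a call was not counted. Sohlh2 (without KITpos replicate 2, 3 or 4 or GFRA1pos replicate 2 or 4; log2 fold change 0.35 to 0.45), Neurog3 (without KITpos replicate 3 or 4 or GFRA1pos replicate 1 or 3; -0.97 to -0.82) and Sycp1 (without KITpos replicate 5, 0.93, or GFRA1pos replicate 2, 1.01) lost it. Gained when 1 library was left out were Epcam (-0.29) and Cyp26a1 (1.25) without KITpos replicate 5, Ccnd3 (-0.47) and Trp53 (-0.50) without KITpos replicate 2, Rarg (0.59) without GFRA1pos replicate 3, Ccnb1 (0.30) without GFRA1pos replicate 2, and Cdkn1a (-0.80 to -0.77) without KITpos replicate 3 or 5 or GFRA1pos replicate 1. A setting chosen after seeing the data dropped the libraries richest in spermatid transcripts and gave 3339 higher and 3194 lower without 1 library a group, and 3159 and 2869 without 2. In the fit without 2 a group, Fgfr3, Sox3, Rara, Aldh1a1, Ccnd1, Mki67, Sycp3, Sycp1, Cyp17a1 and Hsd17b3 were no longer called; the cause was not tested. Libraries with the same replicate number did not deviate together (correlations -0.46, -0.13, -0.08 and -0.35). Pairs with different numbers ranged from -0.32 to 0.41. These values cannot tell whether libraries of the same number shared an animal or a sort, and the labels do not say. A fit with replicate number as a block called 3769 higher and 3641 lower. KITpos depth, below that of every GFRA1pos library, limits genes with few counts.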

Other observations

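In KITpos against GFRA1pos, pluripotency and primordial germ cell factors were called lower in 10 and higher in 3 of 19 cases (median log2 fold change -1.11), and forkhead factors lower in 9 and higher in 1 of 17 (median -0.94). Chemokines and their receptors were lower in 2 and higher in 1 of 5. Genes of cholesterol synthesis were lower in 8 and higher in 5 of 24. Autophagy and lysosome genes, lower in 9 (30.0%) and higher in 8 of 30, lay near the shares over all genes. Tricarboxylic acid cycle genes were higher in 10 and lower in 4 of 21, but 6 were called higher without GFRA1pos replicate 2. Cytosolic aminoacyl-tRNA synthetases were higher in 5 and lower in 2 of 19.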
